A study of Mus musculus with 26 samples.

Results

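The set described here was the genes of oxidative phosphorylation measured by RNA-Seq in C2C12 cells, an established line of mouse myoblasts that exit the cell cycle and turn into muscle cells when serum is withdrawn. Members were all protein-coding genes of the GENCODE M21 mouse annotation whose symbol begins with Nduf, Uqcr, Cox, Sdh, Atp5 or mt-, without the Ndufaf and Sdhaf assembly factors, that held at least 10 counts in at least 3 of the 26 libraries. Of 108 candidates among 55341 genes listed, 101 met this rule, 88 encoded in the nucleus and 13 on the mitochondrial genome. The nuclear members comprised 37 genes of complex I, 4 of complex II, 8 of complex III, 22 of complex IV (8 of them assembly factors) and 17 of complex V. The mitochondrial genome contributed 7 genes to complex I, 1 to complex III, 3 to complex IV and 2 to complex V. The 7 candidates that did not qualify were Ndufs3, Cox20, Cox4i2, Cox6b2, Cox7b2, Cox8c and a second Atp5o entry.

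The study asked what loss and gain of the lysine methyltransferase SMYD3 do to gene expression early in muscle differentiation. In the knockdown experiment, C2C12 myoblasts received a control siRNA (siCtrl) or 1 of 2 siRNAs against SMYD3 (siSMYD3#1, siSMYD3#2). The paper's methods describe 2 transfections, 1 in proliferating cells and the other 24 h later, at the induction of differentiation. RNA was taken from confluent cells at 0 h and after 24 h in differentiation medium, with 3 libraries for each of the 6 conditions. Study replicates 1 and 2 came from passage 14 and were extracted with the NucleoSpin RNA kit, and replicate 3 came from passage 11 and was extracted with TRIzol, so extraction, passage and replicate number cannot be told apart. In the overexpression experiment, SMYD3 CL5, 1 clone that carries HA-Flag-tagged SMYD3 in the retroviral vector pREV, was set against cells with empty pREV at 0 h and 24 h, with 2 libraries for each of the 4 conditions, all extracted with TRIzol. Replicate numbers, passages and extraction follow the study's sample list, while a legend of the study counts the replicate with the other extraction as the first. The study calls its replicates biological, but nothing says whether libraries of 1 passage came from separate cultures, so p-values measure only the spread between these libraries.

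Oxidative phosphorylation passes electrons from NADH (complex I) and succinate (complex II) through complex III to oxygen at complex IV, and the proton gradient built on the way drives ATP synthesis by complex V. Only complex II is made entirely from nuclear genes. The other complexes combine nuclear subunits with subunits that are transcribed from both strands of the mitochondrial DNA as long precursors and cut into single mRNAs. Skeletal muscle is rich in these complexes, and striated muscle replaces some subunits of complex IV by its own isoforms, such as Cox6a2 for Cox6a1, Cox7a1 for Cox7a2 and Cox8b for Cox8a.

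Libraries held 14315193 to 60398170 counts in the knockdown experiment and 21124675 to 67853386 in the overexpression experiment. Levels below are CPM, counts relative to TMM-scaled library sizes, and differences are log2 fold changes from edgeR's quasi-likelihood test, called at a Benjamini-Hochberg adjusted p under 0.01 over all genes tested. Members were also counted by sign, at an unadjusted p under 0.05, by DESeq2 and with NucleoSpin alone. Those counts were set against all genes only where a value for all genes under the same rule is given. Smyd3 itself fell in the siSMYD3#2 libraries (log2 fold change -1.41 at 0 h and -1.51 at 24 h, edgeR adjusted p = 1.07e-04 and 5.06e-05). It was not detectably lower in the libraries labelled siSMYD3#1 (-0.16 and -0.24, edgeR adjusted p = 0.785 and 0.414) nor detectably higher in those labelled SMYD3 CL5 (0.29 and 0.36, edgeR adjusted p = 0.593 and 0.671). Within these libraries, a direction drawn from these 2 groups therefore rests on their labels. The paper also measured Smyd3 mRNA by qPCR in C2C12 cells given Smyd3 siRNA. By western blot the paper followed SMYD3 protein with siSMYD3#1 and the FLAG tag in SMYD3 CL5. It does not state the species of the transgene, which counts of mouse Smyd3 may not capture. The myoblast list (Myod1, Myf5, Des, Pax7) varied widely among the knockdown libraries. It summed to 139 to 1227 CPM at 0 h (median 989) and 166 to 1612 CPM at 24 h (median 1116). In the overexpression libraries this list summed to 445 to 1172 and 673 to 1323 CPM. The summed level of 6 differentiating-muscle markers (Myog, Ckm, Myh3, Acta1, Mymk, Tnnt3) ranged from 5.02 to 10.5 CPM at 0 h and from 53.9 to 1350 CPM at 24 h in the knockdown libraries. There the adipocyte list (Adipoq, Fabp4, Plin1, Cidec, Lep) summed to at most 0.392 CPM and the brown adipocyte list (Ucp1, Cidea, Dio2) to at most 1.24 CPM. In the overexpression libraries these lists reached 1.665 and 3.44 CPM. Adipoq, Cidec, Lep, Ucp1 and Cidea stayed at or under 3 counts in every library, while Fabp4, Plin1 and Dio2 did not. Osteoblast, endothelium and leukocyte lists reached 3.59, 3.81 and 6.62 CPM. Library 2 of SMYD3 CL5 at 0 h stood apart, with 81.9 CPM of the muscle regulator Myog against 15.9 CPM in its partner. Both lay above the vector libraries at 0 h (0.2825 and 0.5354 CPM). The medians, ratios and counts of calls that involve library 2 of SMYD3 CL5 at 0 h are also given without it.

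Compared per exon length, as TPM, in which counts are divided by exon bases and scaled to the same total in each library, averaged over the 26 libraries, 7 mitochondrial genes led all 101 members. mt-Co1, the catalytic core of complex IV, stood at 21570 TPM, mt-Cytb of complex III at 12340 TPM and mt-Nd1 of complex I at 8437 TPM. Among nuclear members, Atp5b, the catalytic beta subunit of complex V, was highest at 1471 TPM, ahead of Cox8a of complex IV at 1196 TPM. Ndufa4 led the nuclear Nduf genes at 512 TPM, Uqcr11 complex III at 499 TPM and Sdhd complex II at 369 TPM. The median nuclear member of each complex lay between 145 TPM (complex I) and 324 TPM (complex III). In the knockdown libraries Atp5b ranged from 1272 to 1603 TPM.

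At the other end of the nuclear genes, the 3 striated-muscle isoforms of complex IV stood at 5.39 TPM (Cox7a1), 4.57 TPM (Cox6a2) and 1.38 TPM (Cox8b), and the hypoxia-associated Ndufa4l2 at 0.829 TPM. Uqcrc1, a core subunit of complex III that every respiring cell needs, was listed at only 4.17 TPM, and the complex I core subunit Ndufs3 at 52 counts over all 26 libraries. The catalytic alpha subunit gene of complex V, Atp5a1, held 14491 counts over the 26 libraries, and the assembly factor Cox20 held 2. The cause of these low counts was not tested, and the 4 genes are given as counted.

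The 13 mitochondrial genes fell far apart in counts per exon base, although they derive from shared precursors. Over the 26 libraries mt-Co1 held 5778 counts per base, mt-Cytb 3502, mt-Nd1 2349 and mt-Nd2 1358, followed by mt-Nd6 at 786, mt-Nd5 at 765 and mt-Nd4 at 752. The other 6 genes were lower by an order of magnitude or more, at 71.4 counts per base for mt-Co2, 34.0 for mt-Atp6, 26.9 for mt-Co3, 17.1 for mt-Atp8, 6.87 for mt-Nd4l and 3.83 for mt-Nd3. For 5 of these 6 genes, at least 97.8% of all 75-base stretches also occur in an annotated pseudogene, a copy of mitochondrial DNA on the minus strand of chromosome 1 (GRCm38 24611535 to 24616197). The exception is mt-Atp8, of whose stretches 0.0% were shared with an annotated transcript of another gene. Bases of chromosome 1 between the annotated pseudogenes were not searched, so mt-Atp8 cannot be called free of a copy. A 75-base read that lies in such a stretch matches both places equally, and how the authors' counting treated such reads is not given in the sources used here.

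The sequences below show where the shared runs end, for 1 gene that the pseudogene block covers to its final base and 2 that it covers in part. Capitals mark bases of the run that is identical in gene and pseudogene, read 5′ to 3′ on the gene's own strand from the GENCODE M21 transcripts, and positions count from 1 at the start of each transcript. mt-Co3 (chromosome M, GRCm38 8607 to 9390) matched Gm28437 over 783 of its 784 bases, so that the gene's final base alone lay outside the run.
mt-Co3 bases 745 to 784: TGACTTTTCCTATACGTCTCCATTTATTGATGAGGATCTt
Gm28437 bases 744 to 783: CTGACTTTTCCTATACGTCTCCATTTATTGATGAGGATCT
mt-Nd4 (GRCm38 10167 to 11544) matched Gm28439 over its bases 1 to 876 and ran on to base 1378 without it.
mt-Nd4 bases 837 to 916: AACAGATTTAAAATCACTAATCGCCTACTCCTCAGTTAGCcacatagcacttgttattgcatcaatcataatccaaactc
Gm28439 bases 837 to 876: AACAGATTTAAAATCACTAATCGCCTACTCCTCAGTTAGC
mt-Co1 (GRCm38 5328 to 6872) matched Gm29216 from base 1067 to its end at base 1545, and its bases before that lay outside the copy.
mt-Co1 bases 1027 to 1106: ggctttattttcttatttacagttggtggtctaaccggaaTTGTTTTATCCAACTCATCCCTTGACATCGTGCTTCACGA
Gm29216 bases 1 to 53: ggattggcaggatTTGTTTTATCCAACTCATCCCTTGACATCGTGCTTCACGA

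For the genes covered from end to end, counts on gene and pseudogene lay within an order of magnitude of each other. mt-Co3 and Gm28437 held 26.9 and 26 counts per base, mt-Atp6 and Gm10925 34.0 and 45.5, and mt-Nd4l and Gm10222 6.87 and 7.25. The ratio was less even for mt-Co2 and Gm28661 (71.4 and 27.5) and for mt-Nd3 and Gm28438 (3.83 and 22.8). mt-Nd4 and mt-Co1, which are covered in part, held 752 and 5778 counts per base against 6.26 and 32.6 on their pseudogenes. The 5 genes covered from end to end are therefore reported below as uncertain, and medians of the mitochondrial genes are also given without them in the overexpression comparisons and against siCtrl at 0 h.

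**Figure D1:**
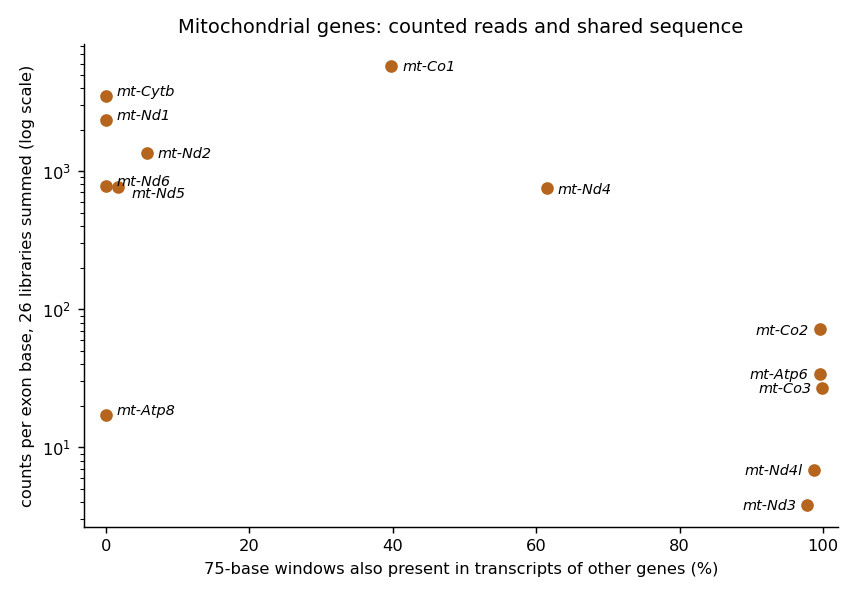
Counts per exon base (vertical axis, log scale, summed over 26 libraries) against the share of each gene's 75-base stretches that also occur in another annotated gene or pseudogene (horizontal axis, %), 1 point per mitochondrial protein-coding gene. The 5 genes with at least 97.8% of their stretches shared lie at 71.4 counts per base or below, and the 7 genes at 752 or above have at most 61.5% shared.

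Mitochondrial members took 1.35% to 3.71% of a library's counts and nuclear members 0.863% to 1.81%. In the knockdown libraries the mitochondrial share moved with extraction. At 0 h the 6 NucleoSpin libraries lay between 1.44% and 3.64% and the 3 TRIzol libraries between 1.35% and 1.46%, whereas the nuclear share spanned only 1.12% to 1.20% and 1.06% to 1.16%. At 24 h the mitochondrial share was 1.57% to 2.73% with NucleoSpin and 1.35% to 1.78% with TRIzol. In bulk libraries fewer mitochondrial transcripts per cell and fewer cells that hold them cannot be told apart.

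The log2 ratio of summed mitochondrial to summed nuclear counts, a value that no scaling of libraries alters, averaged 1.13 ± 0.69 in siCtrl at 0 h and 0.84 ± 0.27 at 24 h (SD, n = 3). It was 0.91 ± 0.56 and 0.65 ± 0.31 in the libraries labelled siSMYD3#1, and 0.65 ± 0.57 and 0.96 ± 0.12 in siSMYD3#2 (SD, n = 3). Each of these differences over time was smaller than the pooled SD of its groups (0.41 to 0.52). Within extraction the difference over time in siCtrl was -0.60 with NucleoSpin and 0.33 with TRIzol, opposite in sign. In the libraries labelled siSMYD3#1 it was -0.45 and 0.12, and in siSMYD3#2 0.24 and 0.47. TRIzol libraries lay 0.56 below NucleoSpin libraries of the same condition on average, against a pooled SD of 0.46.

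**Figure D2:**
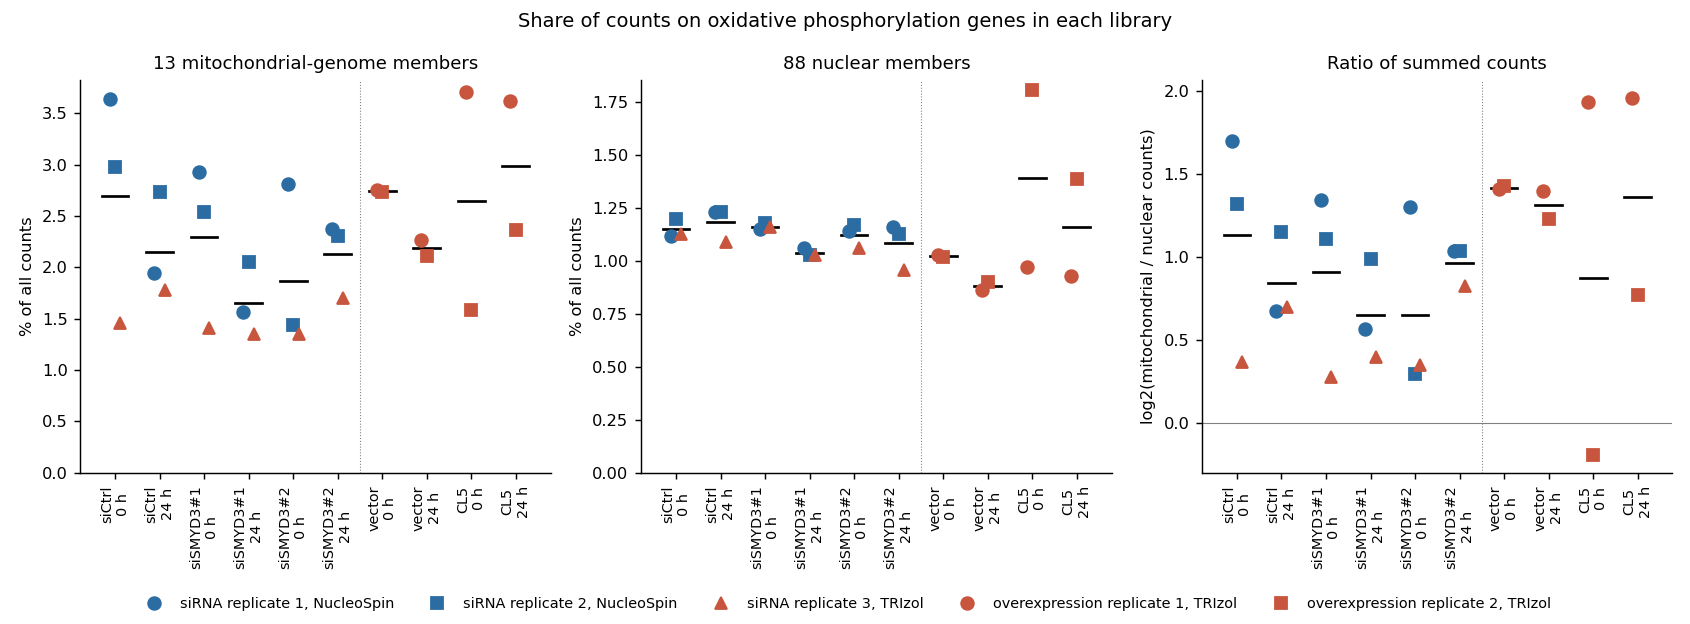
Share of all counts (vertical axes, %) on 13 mitochondrial and 88 nuclear members, and the log2 ratio of their summed counts, 1 point per library by condition, with group means as bars and extraction shown by colour. The nuclear share stays between 0.863% and 1.81% while the mitochondrial share ranges from 1.35% to 3.71%, and library 2 of SMYD3 CL5 at 0 h is the lowest of all in ratio (-0.19).

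In siCtrl cells, where the comparison of 24 h with 0 h gives the course of normal differentiation, single nuclear genes moved in both directions around a median close to that of all genes. Of 87 nuclear members tested, 8 rose and 6 fell, where 14.6% of all 15820 genes tested rose and 14.8% fell, and the nuclear median was 0.04 (all genes 0.03). With the 12 NucleoSpin libraries alone 19 members were called in place of 14, without the extraction covariate 4 were, and without siCtrl replicate 1 at 24 h 7 were. Complex I contributed 5 of the risers, complex IV the other 3, and none came from complexes II, III and V.

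Ndufv3, an accessory subunit of the NADH-oxidising arm of complex I (chromosome 17, GRCm38 31520115 to 31531331), rose most among well-counted members. It stood at 35.8, 49.4 and 46.4 CPM in the siCtrl libraries at 0 h and at 110, 103 and 80.9 CPM at 24 h. The groups did not overlap, and the means of 43.8 ± 7.2 and 98.0 ± 15.2 CPM (SD, n = 3) differed by 1.15 ± 0.13 (SE) on the log2 scale (edgeR adjusted p = 1.93e-06).

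Ndufa13, which is also known as a cell-death regulator, and Ndufa6 rose by 0.42 and 0.41 (edgeR adjusted p = 7.77e-03 and 5.74e-04), and Ndufa13 no longer passed once the replicate number entered as a block (edgeR adjusted p = 0.011). Ndufa3 rose by 0.37 (edgeR adjusted p = 2.9e-03). All are accessory subunits of complex I, and exons of Ndufa13 share 375 bases with Tssk6 on the opposite strand, while whether the counts were made by strand is not given in the sources used here.

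Cox7a2l, which joins complex III to complex IV in supercomplexes, stood at 122, 114 and 98.3 CPM in siCtrl at 0 h and at 168, 159 and 143 CPM at 24 h. The groups did not overlap and differed by 0.50 ± 0.10 (SE, edgeR adjusted p = 4.81e-04). The other risers of complex IV were muscle isoforms. Cox6a2 held 0, 3 and 0 counts in the siCtrl libraries at 0 h and 86, 58 and 24 at 24 h, at least 30.9-fold higher, and Cox7a1 rose by 1.68 ± 0.42 (SE, edgeR adjusted p = 3.72e-03) with overlapping groups (0.533 ± 0.177 and 1.84 ± 1.02 CPM, SD, n = 3). Cox8b, kept out of the test by the filter on low counts, held 0 counts in each siCtrl library at 0 h and 10, 9 and 9 at 24 h, at least 4.94-fold higher than the floor of 3 counts a library.

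The members that fell in siCtrl were 2 assembly factors of complex IV and 4 subunits. Cox18, which inserts part of mt-Co2 into the membrane, fell by 0.51 (edgeR adjusted p = 1.1e-03) and Cox10, which makes the heme group of complex IV, fell by 0.44 (edgeR adjusted p = 7.01e-03). Cox10 stood at 30.1, 34.6 and 41.6 CPM at 0 h and at 26.1, 24.6 and 27.6 CPM at 24 h. Each 24 h library lay under each 0 h library for both genes. Of 26 alternatives, Cox10 and Ndufa5 each lost the call in siCtrl under 8 and Ndufa13 under 10, while Ndufv3 kept it under all.

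Ndufa5 of complex I held 51.0, 50.1 and 48.9 CPM at 0 h and 40.8, 39.7 and 35.6 CPM at 24 h (-0.37, edgeR adjusted p = 5.8e-03). Ndufb8, a subunit that is unstable when complex I does not assemble, fell by 0.33 (edgeR adjusted p = 1.94e-03). Both were lower in every 24 h library. The complex V genes Atp5g1, which encodes the proton-carrying c subunit, and Atp5f1, of the stalk that holds the enzyme still, fell by 0.40 and 0.32 (edgeR adjusted p = 7.56e-03 and 4.53e-03) with overlapping groups.

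No mitochondrial gene was called in siCtrl between the time points, 0 of 13 by edgeR at the threshold, 0 at an unadjusted p under 0.05 and 0 by DESeq2, with a median of -0.28. The 2 extractions gave different pictures. In the NucleoSpin libraries 13 of 13 were lower at 24 h (median -0.47), and in the single pair of TRIzol libraries 11 of 13 were higher (median 0.33). mt-Co1 went from 19310 and 16050 CPM to 10270 and 15200 CPM with NucleoSpin and from 6482 to 7188 CPM with TRIzol. mt-Nd1 went from 4503 and 4075 CPM to 1936 and 3009 CPM with NucleoSpin and from 1915 to 1865 CPM with TRIzol. For mt-Nd1 the TRIzol library was lowest at both times.

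Other RNA also differed with extraction and time, given here over the 3 siRNA treatments. The mitochondrial 16S ribosomal RNA mt-Rnr2, which should be sparse after poly(A) selection, held 568 to 1640 CPM (here, for Neat1 and for the summed genes covered by pseudogenes, of the unscaled library total) in the NucleoSpin libraries at 0 h and 151 to 332 at 24 h, but 322 to 427 and 252 to 463 in the TRIzol libraries. In siSMYD3#2, where the mitochondrial mRNAs of the NucleoSpin libraries had no common direction, it also went from 1040 and 568 to 180 and 210. The nuclear-retained RNA Neat1 held 14.3 to 53.3 CPM with NucleoSpin at 0 h and 161 to 306 at 24 h, against 236 to 261 and 258 to 328 with TRIzol. Their part in the mitochondrial results was not tested.

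**Figure D3:**
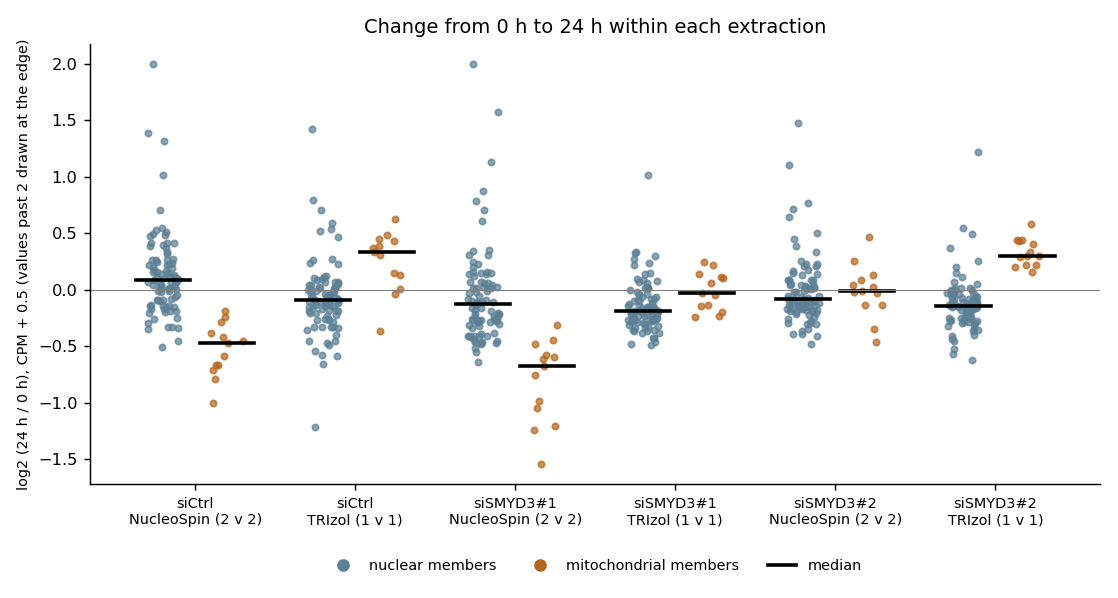
Log2 ratio of the 24 h level to the 0 h level of each member within 1 extraction, for the 3 siRNA treatments, with nuclear and mitochondrial members in separate columns and medians as bars; NucleoSpin values rest on 2 libraries a time and TRIzol values on 1. In siCtrl the 13 mitochondrial members sit below 0 with NucleoSpin (median -0.47) and mostly above 0 with TRIzol (median 0.33), while the nuclear medians are 0.08 and -0.10.

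In the libraries labelled siSMYD3#1, 24 h against 0 h called 5 nuclear members up and 13 down, where 12.7% of all genes rose and 12.7% fell. The nuclear median was -0.16 and 62 of 87 members had a negative value, a count not set against all genes. With NucleoSpin alone 27 members were called in place of 18, and without the extraction covariate 2 were. Leaving out 1 library gave 32 without replicate 3 at 24 h (TRIzol), 8 and 11 without replicates 1 and 2 at 24 h, and 9 and 11 without replicates 1 and 2 at 0 h. The genes that fell came from complexes I to V and included no assembly factor.

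Ndufa5 fell by 0.52 (edgeR adjusted p = 5.83e-04) and Ndufa4, now known to sit in complex IV, by 0.43 (edgeR adjusted p = 1.33e-03). Ndufa4 stood at 281, 271 and 221 CPM at 0 h and at 186, 190 and 193 CPM at 24 h, with all 24 h libraries below all 0 h libraries. Uqcrb, the ubiquinone-binding subunit of complex III, fell by 0.43 (edgeR adjusted p = 9.03e-04), and Sdhd, a membrane anchor of complex II, by 0.39 (edgeR adjusted p = 1.59e-03). In complex V, Atp5g1 and Atp5f1 fell by 0.49 and 0.44 (edgeR adjusted p = 2.0e-03 and 4.48e-04). Ndufb8, Ndufa12, Ndufs1, Cox7a2, Atp5g3, Atp5j2 and Atp5c1 completed the list with falls between 0.28 and 0.42.

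Against this, Ndufv3 rose from 47.9 ± 4.1 to 71.7 ± 8.6 CPM (SD, n = 3; 0.57, edgeR adjusted p = 2.24e-03) in the libraries labelled siSMYD3#1, and it also rose in siCtrl. Atp5s, a regulatory factor of complex V, rose by 0.70 (edgeR adjusted p = 4.51e-03) with overlapping groups. Cox6a2 and Ndufa4l2 rose from at most 3 counts a library to 36, 35 and 19 counts and to 31, 22 and 3 counts, at least 11.6-fold and at least 7.38-fold higher. Ndufa4l2 stayed at 3 counts in the TRIzol library at 24 h.

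For the 13 mitochondrial genes edgeR called 0 in the libraries labelled siSMYD3#1, with 5 at an unadjusted p under 0.05 and 0 by DESeq2, and the median was -0.62. mt-Nd2, mt-Nd1, mt-Nd6 and mt-Atp8 lay lower in every 24 h library than in every 0 h library. mt-Nd1 stood at 3504, 2999 and 1760 CPM at 0 h and at 1188, 1559 and 1538 CPM at 24 h (-0.86 ± 0.29, SE, edgeR adjusted p = 0.0316). Within NucleoSpin 13 of 13 genes were lower at 24 h (median -0.67), and in the TRIzol pair 6 were higher and 7 lower (median -0.03).

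In siSMYD3#2, 3 nuclear members rose and 2 fell over time, where 9.11% of all genes rose and 9.88% fell. The nuclear median was -0.10 and 64 of 87 members were negative, a count also not set against all genes. With NucleoSpin alone 6 members were called in place of 5, without the extraction covariate 0 were, and leaving out 1 library gave 2 to 7. Ndufv3 rose from 49.4, 55.5 and 43.1 CPM to 86.5, 78.2 and 63.1 CPM (0.62, edgeR adjusted p = 1.54e-03), again without overlap. Cox6a2 rose at least 8.67-fold, from at most 3 counts a library to 20, 18 and 17. Ndufa4l2, at 4, 1 and 1 counts at 0 h, held 15, 9 and 1 counts at 24 h (2.89, edgeR adjusted p = 3.18e-03), and its TRIzol library held the same single count at both times.

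Atp5j2, of the membrane part of complex V, fell by 0.32 in siSMYD3#2 (edgeR adjusted p = 7.82e-03), and Ndufa5 by 0.38 (edgeR adjusted p = 8.13e-03), a call that was lost under 11 of 26 alternatives. Of the mitochondrial genes 0 of 13 were called by edgeR, 0 at an unadjusted p under 0.05 and 0 by DESeq2, with a median of 0.10. Their direction differed from the other treatments. Within NucleoSpin 6 were higher and 7 lower at 24 h (median -0.01), and in the TRIzol pair 13 of 13 were higher (median 0.30).

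Ndufv3 rose and Ndufa5 fell in each of the 3 siRNA treatments, and Cox6a2 rose in each. The rise of Ndufv3 was 1.15 in siCtrl against 0.57 and 0.62 in the other treatments, and tests of that difference gave -0.58 and -0.53 (edgeR adjusted p = 0.246 and 0.296), short of the threshold. Over all members the change over time differed from siCtrl in 0 of 100 for siSMYD3#1 and 0 of 100 for siSMYD3#2, where 0.215% and 0.019% of all genes were called in either direction. At an unadjusted p under 0.05 these tests held 17 and 15 members, all nuclear, and DESeq2 called 0 in both. The share of all genes at that unadjusted p was not set beside them. The nuclear medians of the difference were -0.15 and -0.12, and the mitochondrial medians -0.28 and 0.44.

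**Figure D4:**
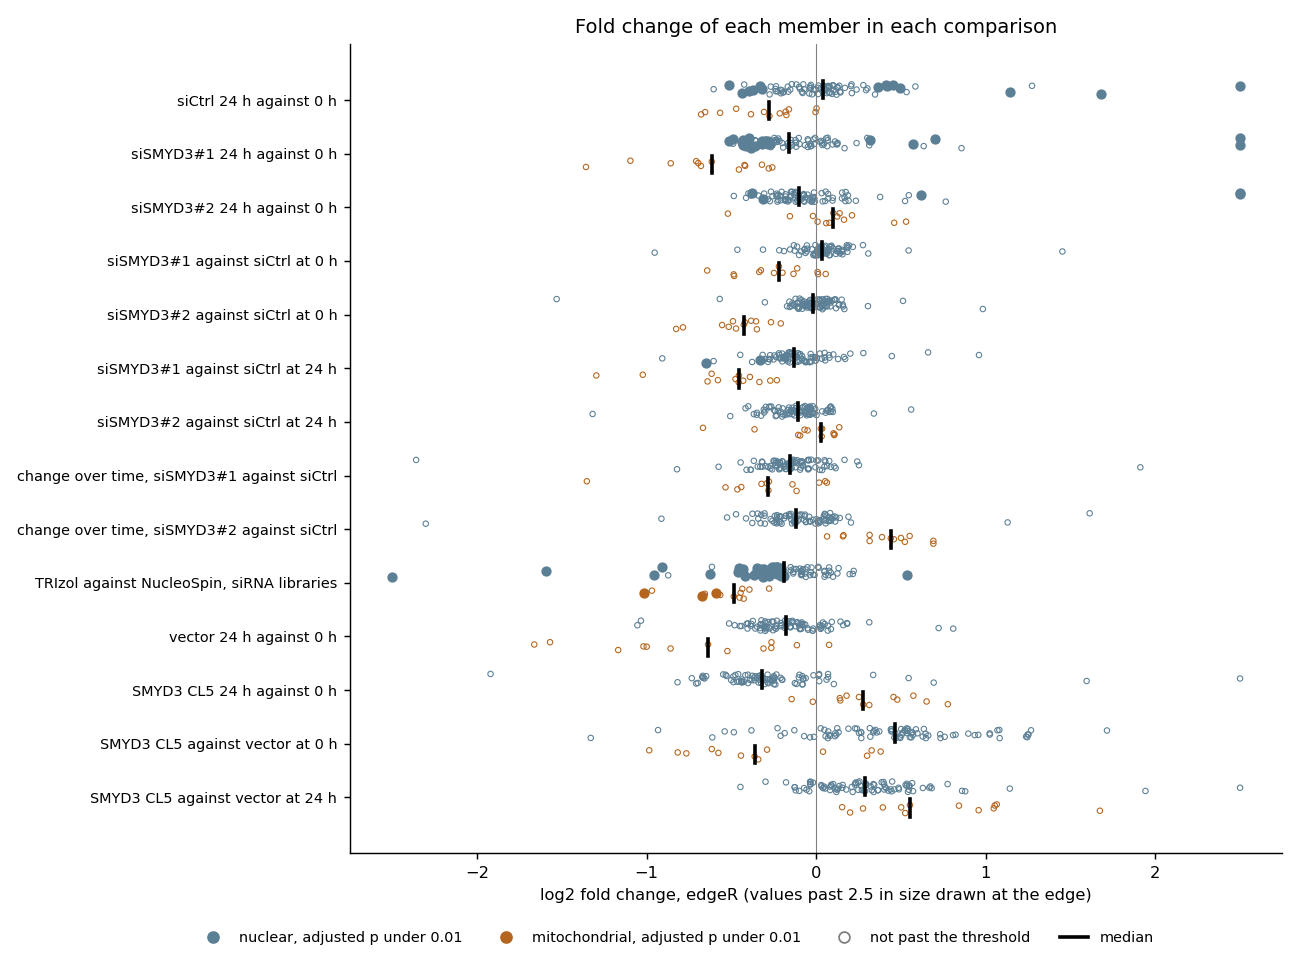
Log2 fold change (horizontal axis, edgeR) of every member tested in each comparison, with nuclear and mitochondrial members in separate rows, called members filled and medians as bars. In siCtrl the nuclear median is 0.04 and the mitochondrial median -0.28, and in TRIzol against NucleoSpin they are -0.19 and -0.49.

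At 0 h, before differentiation, the libraries labelled siSMYD3#1 differed from siCtrl in 0 of 100 members by edgeR, where 1.43% of all genes were called in either direction. At an unadjusted p under 0.05 there were 6, and DESeq2 called 2. Among them was Cox7a2l, which was lower by 0.47 (edgeR adjusted p = 0.0107) and without overlap, at 78.3, 82.3 and 79.8 CPM against 122, 114 and 98.3 CPM. With NucleoSpin alone 1 member passed.

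siSMYD3#2 differed from siCtrl at 0 h in 0 of 100 members by edgeR, where 0.531% of all genes were called. At an unadjusted p under 0.05 there were 4, and DESeq2 called 1. Cox7a2l, at 125, 120 and 84.1 CPM, overlapped siCtrl (-0.03, edgeR adjusted p = 0.959). With NucleoSpin alone 0 members passed. Both comparisons share the siCtrl libraries.

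At 24 h the libraries labelled siSMYD3#1 were lower than siCtrl for 2 members, both nuclear, where 5.85% of all genes were called. Cox7a2l stood at 94.6, 104 and 99.8 CPM against 168, 159 and 143 CPM (-0.65 ± 0.10, SE, edgeR adjusted p = 2.15e-04), with every library below every siCtrl library. Atp5mpl, a small membrane protein of complex V, was lower by 0.33 (edgeR adjusted p = 9.48e-03) with overlapping groups of 62.9 ± 5.6 and 79.8 ± 14.8 CPM (SD, n = 3). With NucleoSpin alone 9 members were called, and DESeq2 called 4. The DESeq2 calls included 2 members that were higher, Cox18 without overlap and Sdhb with overlap (0.45 and 0.28, DESeq2 adjusted p = 1.88e-03 and 5.63e-03). By edgeR these 2 were not called (adjusted p = 0.0129 and 0.0303). Cox18 was also higher without overlap in siSMYD3#2 at 24 h, but not called (0.34, edgeR adjusted p = 0.0684).

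siSMYD3#2 at 24 h differed from siCtrl in 0 of 100 members by edgeR, where 3.7% of all genes were called. There were 18 members at an unadjusted p under 0.05 and 4 by DESeq2, counts not set against all genes. With NucleoSpin alone 2 were called. Cox7a2l stood at 134, 127 and 109 CPM, below every siCtrl library (-0.35 ± 0.10, SE, edgeR adjusted p = 0.0311). Uqcr11 of complex III and the complex IV assembly factor Cox19 were lower by 0.51 and 0.42 (edgeR adjusted p = 0.0123 and 0.0121), each without overlap.

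Most nuclear members had negative values against siCtrl at 24 h, 70 of 87 in the libraries labelled siSMYD3#1 (median -0.13) and 72 of 87 in siSMYD3#2 (median -0.11), in comparisons that share the siCtrl libraries. The share of negative values among all genes was not set beside these counts. Among the negative members were the 13 nuclear subunit genes of complex IV in both comparisons, a count that was not tested. Of the complex IV subunits only Cox7a2l in the libraries labelled siSMYD3#1 was called. Mitochondrial genes had medians of -0.46 and 0.03, with 0 of 13 called by edgeR in either comparison. At an unadjusted p under 0.05 there was 1 (mt-Atp8) for siSMYD3#1 and 0 for siSMYD3#2, and DESeq2 called 0 in both. mt-Cytb stood at 2425, 2916 and 3117 CPM in the libraries labelled siSMYD3#1 and at 3360, 4241 and 3599 CPM in siCtrl, apart but not called (-0.39 ± 0.22, SE, edgeR adjusted p = 0.319). At 0 h the mitochondrial medians against siCtrl were -0.22 and -0.43, with 0 of 13 called by edgeR, 0 and 1 at an unadjusted p under 0.05 and 0 by DESeq2. Without the 5 genes that a pseudogene covers, the first of these medians was -0.12 and the other -0.42.

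**Figure D5:**
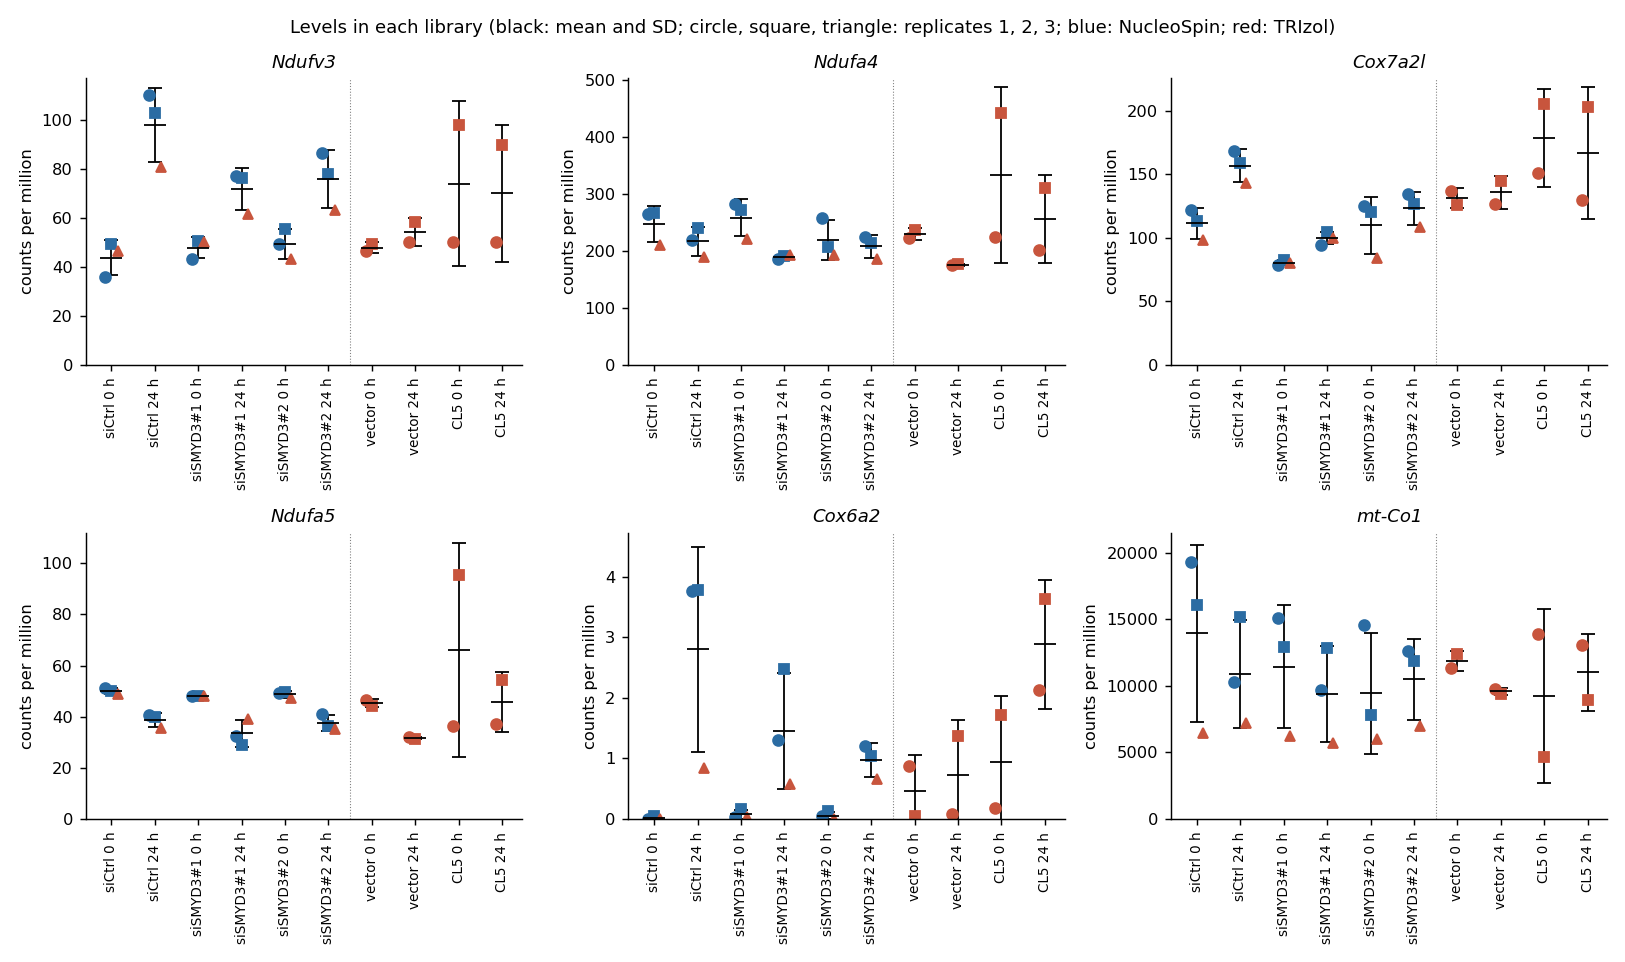
Level (vertical axes, CPM) of 6 members in each library by condition, with the mean and SD of each condition (n = 3 knockdown, n = 2 overexpression) and extraction shown by colour; SD bars that would pass 0 are clipped. Ndufv3 rises from 43.8 to 98.0 CPM in siCtrl, Cox7a2l is 99.6 CPM in the libraries labelled siSMYD3#1 at 24 h against 156.7 in siCtrl, and mt-Co1 is lower in TRIzol libraries of each knockdown condition.

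The isoform pairs showed which version the cells used. Of 17 isoform genes listed, 13 were tested, and 3 rose and 1 fell in siCtrl over time, where 14.6% of all genes rose and 14.8% fell (2 and 4 in the libraries labelled siSMYD3#1, 2 and 0 in siSMYD3#2). Cox6a1, the widely used partner of the muscle gene Cox6a2, stood at 765 TPM against 4.57 TPM, Cox7a2 at 442 TPM against 5.39 TPM for Cox7a1, and Cox8a at 1196 TPM against 1.38 TPM for Cox8b. The muscle versions were thus rare transcripts at 24 h as well, at 2.80 ± 1.69 CPM for Cox6a2 and 0.448 ± 0.136 CPM for Cox8b in siCtrl (SD, n = 3). Cox8b was lower in siSMYD3#2 at 24 h, with 2, 0 and 0 counts, by at least 2.84-fold. In the libraries labelled siSMYD3#1 at 24 h it stood at 0.064 ± 0.062 CPM (SD, n = 3), also below every siCtrl library. Cox6a2 had negative values against siCtrl at 24 h in both, with overlapping groups and no call. They were -0.91 for siSMYD3#1 and -1.32 for siSMYD3#2 (edgeR adjusted p = 0.134 and 0.0414).

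The comparison with the largest number of called members was that between extractions, which cannot be told apart from passage and replicate number. Between TRIzol and NucleoSpin libraries 1 nuclear member was higher and 39 were lower, where 26.1% of all genes were higher and 25.3% lower, and 3 mitochondrial genes were lower and 0 higher. The medians were -0.19 (nuclear) and -0.49 (mitochondrial) against -0.005 for all genes, and 13 of 13 mitochondrial values were negative. Leaving out any 1 library kept the number called between 33 and 49.

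mt-Co1 stood at 6430 CPM on average with TRIzol and 13200 CPM with NucleoSpin (-1.02 ± 0.13, SE, edgeR adjusted p = 9.54e-06). In each of the 6 conditions its TRIzol library lay below both NucleoSpin libraries. mt-Co2 and mt-Atp6 were lower by 0.67 and 0.59 (edgeR adjusted p = 2.58e-03 and 4.5e-03), and both are among the genes that a pseudogene covers. mt-Cytb differed by only -0.28 (edgeR adjusted p = 0.0952), so the mitochondrial genes did not share 1 ratio.

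Among nuclear members, Cox17, the copper chaperone of complex IV, stood at 8.53 against 17.01 CPM (-0.96, edgeR adjusted p = 7.77e-06) and Atp5s at 3.35 against 6.38 CPM (-0.91, edgeR adjusted p = 1.63e-06). Uqcrq of complex III stood at 94.1 against 147 CPM (-0.63, edgeR adjusted p = 3.13e-07) and Sdhb, the iron-sulfur subunit of complex II, at 99.7 against 137 CPM (-0.46, edgeR adjusted p = 3.12e-07). For these 4 genes the TRIzol library was the lowest in all 6 conditions. Cox6a2 and Ndufa4l2 were lower with TRIzol (log2 fold changes -1.596 and -3.128, edgeR adjusted p = 4.37e-04 and 9.11e-06). Over time Cox6a2 was called in each siRNA treatment. Ndufa4l2 was called over time in the libraries labelled siSMYD3#1 and in siSMYD3#2, but not in siCtrl (1.27, edgeR adjusted p = 0.07). Myog also differed, at 222 and 263 CPM in the NucleoSpin libraries of siCtrl at 24 h against 55.6 CPM in the TRIzol library, and the part of this in the results was not tested.

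In the overexpression experiment no member was called in any comparison, and the spread between the 2 libraries of a condition was wide. Between 24 h and 0 h edgeR called 0 of 101 members in vector cells, 0 at an unadjusted p under 0.05 and 0 by DESeq2, where 0.0% of all 17835 genes were called (1256 at an unadjusted p under 0.05, and 90 up and 29 down by DESeq2). In SMYD3 CL5 it called 0 of 101, with 2 at an unadjusted p under 0.05 and 0 by DESeq2, where again 0.0% of all genes were called (1137 at an unadjusted p under 0.05, and 77 up and 32 down by DESeq2). The nuclear medians were -0.18 and -0.32, with 70 and 76 of 88 negative. Without library 2 of SMYD3 CL5 at 0 h the median of SMYD3 CL5 turned to 0.32, with 84 of 88 positive.

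SMYD3 CL5 against vector gave 0 of 101 members by edgeR at 0 h, where 1.07% of all genes were called, and 0 of 101 at 24 h, where 0.964% were. At an unadjusted p under 0.05 there were 9 and 2 members, and DESeq2 called 0 and 1, the latter being Cox8b. Its counts at 24 h were 30 and 32 in SMYD3 CL5 and 1 and 6 in vector. Uqcr11 stood at 123 and 395 CPM in SMYD3 CL5 at 0 h and at 78.5 and 79.0 CPM in vector, apart but not called (1.72 ± 0.55, SE, edgeR adjusted p = 0.156, and 0.67, adjusted p = 0.275, without library 2 of SMYD3 CL5 at 0 h), and at 108 and 218 against 71.2 and 76.2 CPM at 24 h (1.14 ± 0.54, SE, edgeR adjusted p = 0.418).

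Nuclear medians against vector were 0.46 at 0 h and 0.29 at 24 h (-0.20 at 0 h without library 2 of SMYD3 CL5, with 67 of 88 negative), and library 2 of SMYD3 CL5 had the highest nuclear share at both times. That share was 1.81% at 0 h and 1.39% at 24 h, against 0.972% and 0.932% in library 1 and 0.863% to 1.03% in vector. The log2 ratio of mitochondrial to nuclear counts was -0.19 in library 2 at 0 h against 1.93 in library 1. Leaving out 1 library of the comparison moved the ratio difference at 0 h from -0.55 to between -1.61 and 0.52, and the number of members called at 0 h rose to 19 without library 1 of SMYD3 CL5, when library 2 stood alone and was assumed to vary like the other groups. Without library 2 of SMYD3 CL5 at 0 h the ratio difference was 0.517 and 0 members were called, and the ratio difference of SMYD3 CL5 over time went from 0.49 to -0.57.

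For the mitochondrial genes the overexpression medians were -0.64 (vector over time), 0.28 (SMYD3 CL5 over time), -0.36 (SMYD3 CL5 against vector at 0 h) and 0.55 (at 24 h), with 0 of 13 called by edgeR, 0 at an unadjusted p under 0.05 and 0 by DESeq2 in each. The 5 genes covered by pseudogenes moved these values. Together they held 243 to 393 CPM in 6 libraries, but 54.9 in library 2 of vector at 24 h and 65.1 in library 2 of SMYD3 CL5 at 0 h, and their pseudogenes held 269 to 447 in the same 6 libraries and 59.9 and 68.5 in the other 2. In the knockdown libraries these genes held 18 to 51.5 CPM. Without them the 4 medians were -0.29, 0.16, -0.13 and 0.45. These medians keep mt-Atp8, which held 0.615 and 14.8 CPM in SMYD3 CL5 at 0 h and 1.47 and 7.74 CPM in vector at 24 h. Without library 2 of SMYD3 CL5 at 0 h the median over all 13 turned to -0.26 for SMYD3 CL5 over time and to 0.26 against vector at 0 h.

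Other genes that serve oxidative phosphorylation were read as lists. The counts over time below stand beside shares of 14.6% raised and 14.8% lowered among all genes in siCtrl, 12.7% and 12.7% in the libraries labelled siSMYD3#1 and 9.11% and 9.88% in siSMYD3#2. Of 78 genes of the mitochondrial ribosome, which translates the 13 mitochondrial mRNAs, 76 were tested, and 0 rose and 28 fell in siCtrl over time, 0 and 28 in the libraries labelled siSMYD3#1, and 0 and 23 in siSMYD3#2 (medians -0.27, -0.29 and -0.28). Mrpl12 fell by 0.93, 0.86 and 0.93 and Mrpl18 by 0.76, 0.87 and 0.74 (edgeR adjusted p from 1.42e-05 to 1.4e-04). Of 32 genes that transcribe, process and maintain mitochondrial DNA, 29 were tested, and 0, 0 and 2 rose while 11, 11 and 9 fell. Tfam, which packages mitochondrial DNA, fell by 0.40, 0.60 and 0.37 (edgeR adjusted p = 1.8e-03, 6.56e-05 and 5.14e-03), Lrpprc, which stabilises mitochondrial mRNAs, by 0.34, 0.57 and 0.29, and Tbrg4, a mitochondrial RNA-processing factor, by 0.86, 0.89 and 0.83.

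Of 15 nuclear regulators of mitochondrial biogenesis 13 were tested, and 2, 3 and 2 rose while 3, 2 and 2 fell, where 9.11% to 14.6% of all genes rose and 9.88% to 14.8% fell. Ppargc1a, the coactivator best known for driving this programme, rose from 1.57 to 6.83 ± 5.47 CPM in siCtrl (SD, n = 3; 2.04, edgeR adjusted p = 1.29e-04) and by 2.71 and 1.73 in the other treatments, and was lower with TRIzol by 4.28 (edgeR adjusted p = 8.49e-10). Its relative Pprc1 fell by 0.71, 0.49 and 0.73. Nrf1, which binds promoters of many respiratory genes, and Gabpb1, the partner subunit of the DNA-binding GABPA, fell by 0.53 and 0.44 in siCtrl (edgeR adjusted p = 3.15e-05 and 6.62e-04). Esrra was lower at 24 h in the libraries labelled siSMYD3#1 and in siSMYD3#2 than in siCtrl, each by 0.43 (edgeR adjusted p = 6.2e-03 and 9.36e-03).

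Of 42 assembly factors outside the set 40 were tested, and 1, 0 and 0 rose while 6, 8 and 4 fell over time, against 14.8%, 12.7% and 9.88% of all genes that fell. Of 16 genes of the tricarboxylic acid cycle and pyruvate dehydrogenase 0 rose and 3 fell in each treatment, and Idh3a fell by 0.56, 0.70 and 0.46. Of 16 genes of fatty acid oxidation 4, 1 and 1 rose and 0, 1 and 1 fell, and Acadm, which starts the breakdown of medium-chain fatty acids, rose by 0.61, 0.47 and 0.49. Of 13 carriers and exchangers 9 were tested, and 0 rose and 2, 4 and 2 fell. Among them Cycs, the cytochrome c that carries electrons to complex IV, went from 177 to 105 CPM in siCtrl (-0.78, edgeR adjusted p = 3.33e-06) and Slc25a5, an ADP/ATP exchanger, from 721 to 437 CPM (-0.72, edgeR adjusted p = 1.78e-05).

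Against siCtrl at 24 h, 2 of 76 ribosome genes were lower and 1 higher in the libraries labelled siSMYD3#1 and 0 in siSMYD3#2. Of all genes 5.85% and 3.7% were called in either direction in these comparisons. The medians of the ribosome list were -0.006 and 0.007. Pdha1, the catalytic alpha subunit of pyruvate dehydrogenase, was lower by 0.50 in the libraries labelled siSMYD3#1 (edgeR adjusted p = 2.63e-04) and by 0.07 in siSMYD3#2 (edgeR adjusted p = 0.638). In the overexpression comparisons 0 genes of any of these lists were called, where 0.0% to 1.07% of all genes were.

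Promoters, taken as 250 bases before to 50 after the RefSeq start on GRCm38.p6, could be read for 70 nuclear members. NRF1's core GCGCATGCG stood in 8 of them (11.4%, against 1.95% of the promoters of all 27025 genes), GABPA's core CCGGAAG in 19 (27.1% against 9.93%), YY1's AAGATGG in 11 (15.7% against 7.28%) and the ERR motif AAGGTCA in 8 (11.4% against 5.38%), counting both strands. The E-box CAGCTG, which muscle regulators such as Myog bind, stood in 6 (8.57% against 18.3%). A match is a description of the letters and not of binding.

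The 5 promoters printed here are those of Ndufv3 and Cox7a2l, on which the comparisons over time and against siCtrl turn, and of 3 complex IV genes chosen after the matches were seen. They are the 250 bases before the start on the gene's strand, 5′ to 3′, with matches in capitals. Ndufv3 lies at chr17:31519865-31520114 on the plus strand, Cox7a2l at chr17:83514334-83514583 on the minus strand, Cox10 at chr11:64079473-64079722 on the minus strand, Cox6a1 at chr5:115348959-115349208 on the minus strand and Cox8b at chr7:140900447-140900696 on the minus strand. Those of Ndufv3 and Cox7a2l, which moved most clearly, held no match to the 5 motifs.
Ndufv3: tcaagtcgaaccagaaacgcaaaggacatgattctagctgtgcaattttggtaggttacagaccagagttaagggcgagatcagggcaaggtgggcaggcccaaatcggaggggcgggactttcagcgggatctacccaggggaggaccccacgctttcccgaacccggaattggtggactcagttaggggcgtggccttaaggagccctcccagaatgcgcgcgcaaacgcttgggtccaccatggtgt
Cox7a2l: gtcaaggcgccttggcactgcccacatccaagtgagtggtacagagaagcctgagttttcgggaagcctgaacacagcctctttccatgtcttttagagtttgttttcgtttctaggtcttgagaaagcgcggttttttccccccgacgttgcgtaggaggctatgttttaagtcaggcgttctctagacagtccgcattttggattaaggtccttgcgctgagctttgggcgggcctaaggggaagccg
Cox10: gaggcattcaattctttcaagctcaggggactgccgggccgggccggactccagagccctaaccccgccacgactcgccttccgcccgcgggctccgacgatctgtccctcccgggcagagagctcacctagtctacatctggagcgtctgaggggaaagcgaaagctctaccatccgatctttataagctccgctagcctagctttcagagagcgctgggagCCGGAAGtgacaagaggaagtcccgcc
Cox6a1: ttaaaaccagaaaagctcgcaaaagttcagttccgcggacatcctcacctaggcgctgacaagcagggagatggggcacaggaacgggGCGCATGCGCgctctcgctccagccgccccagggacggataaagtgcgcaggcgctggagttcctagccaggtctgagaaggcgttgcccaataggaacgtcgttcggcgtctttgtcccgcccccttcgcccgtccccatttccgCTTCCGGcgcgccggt
Cox8b: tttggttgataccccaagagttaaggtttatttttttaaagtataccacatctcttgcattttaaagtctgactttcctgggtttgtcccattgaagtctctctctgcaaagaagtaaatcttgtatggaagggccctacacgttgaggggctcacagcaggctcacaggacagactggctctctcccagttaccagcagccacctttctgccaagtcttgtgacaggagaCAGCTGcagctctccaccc
Cox10, which fell in siCtrl, held the GABPA core, Cox6a1 of the widely used isoform held both the NRF1 and the GABPA core, and Cox8b of the muscle isoform held the E-box close to its start.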

How the data were processed

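RNA of 26 C2C12 libraries was poly(A)-selected with a stranded kit and sequenced as 75-base read pairs, and the authors aligned reads to GRCm38 with HISAT2 2.1.0 and counted them with featureCounts (Subread 1.6.3). The deposited values are raw counts per gene. The strand setting, the treatment of reads with several matches and the annotation release are not given in the sources used here. Of the gene identifiers, 54495 matched GENCODE M21 and 846 did not. No 2 libraries held identical counts.

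Counts were fitted with edgeR 4.0.16 (filterByExpr, TMM, robust quasi-likelihood) in R 4.3.3, the 18 knockdown libraries with 6 conditions and extraction as a covariate (15820 genes) and the 8 overexpression libraries with 4 conditions (17835 genes), and calls were made at a Benjamini-Hochberg adjusted p under 0.01. DESeq2 1.42.0, another filter and scaling, left-out libraries and a replicate block were alternatives. The procedure was also run on simulated counts with known changes. These were drawn with 1 common dispersion and without an extraction effect, so they cannot show how the procedure handles that effect. Named genes were the mitochondrial genes, the isoforms, per comparison up to 5 rises and falls past the threshold with a mean of at least 100 counts and groups that did not overlap, and the highest gene of each complex. The results of 1 member are not reported here. The members and lists were chosen with earlier results of these data known.

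Replicate numbers, passages and extraction came from the study's sample list. Deviations from the group means correlated between knockdown libraries of the same number (0.313 to 0.851 over 45 pairs, median 0.571), and between -0.102 and 0.177 within NucleoSpin. The 12 overexpression pairs gave -0.0973 to 0.483.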

Additional observations from a re-analysis of the deposited data

How the results depend on the processing

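The values below moved with the processing, and the cause was not tested. Without the extraction covariate, 24 h against 0 h called 4 members in siCtrl, 2 in siSMYD3#1 and 0 in siSMYD3#2, and siSMYD3#1 against siCtrl at 24 h called 0. With all 26 libraries in 1 fit these became 3, 1, 1 and 0, extraction called 17, and SMYD3 CL5 against vector 6 at 0 h and 1 at 24 h. DESeq2 called 9 for siSMYD3#2 over time, 2 and 1 for siSMYD3#1 and siSMYD3#2 against siCtrl at 0 h, 4 and 4 at 24 h, and 1 for SMYD3 CL5 against vector at 24 h. Without a filter on low counts, siSMYD3#1 and siSMYD3#2 against siCtrl called 1 and 4 at 0 h and 8 and 1 at 24 h, the change over time in siSMYD3#2 1, vector and SMYD3 CL5 over time 1 and 1, and SMYD3 CL5 against vector 7 and 3. NucleoSpin alone gave 1 (siSMYD3#1 at 0 h), 9 and 2 (siSMYD3#1 and siSMYD3#2 at 24 h). With mitochondrial genes out of the library sizes siSMYD3#1 at 24 h called 1. In TRIzol alone, chosen after seeing the data, the ratio in siCtrl changed by 0.333 over time.

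Leaving out 1 library at a time gave 7 to 17 members called in siCtrl over time, 8 to 32 in siSMYD3#1, 2 to 7 in siSMYD3#2, 33 to 49 for extraction, 0 to 1 and 1 to 4 for siSMYD3#1 against siCtrl at 0 h and 24 h, 0 to 0 and 0 to 2 for siSMYD3#2, 0 to 0 for both changes over time, 0 to 0 and 0 to 1 for vector and SMYD3 CL5 over time, and 0 to 19 and 0 to 0 for SMYD3 CL5 against vector at 0 h and 24 h. The ratio difference, also chosen after seeing the data, ran from -0.668 to -0.001 in siCtrl, -0.578 to -0.043 in siSMYD3#1 and 0.139 to 0.641 in siSMYD3#2 over time. Against siCtrl it ran from -0.602 to 0.096 and -0.364 to -0.039 for siSMYD3#1 and from -0.862 to -0.195 and 0.037 to 0.277 for siSMYD3#2 at 0 h and 24 h. It ran from -0.642 to -0.441 for extraction, -0.19 to -0.022 for vector and -0.57 to 1.558 for SMYD3 CL5 over time, and -1.611 to 0.517 and -0.544 to 0.649 for SMYD3 CL5 against vector.

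With the replicate number as a block, 14, 17 and 4 members were called over time in siCtrl, siSMYD3#1 and siSMYD3#2, 2 for siSMYD3#1 against siCtrl at 24 h, and 0 elsewhere. Of the 19 named results that were fitted with the block, only Ndufa13 in siCtrl lost its call, and over the 609 alternatives to 24 named results 73 lost the call and 0 reversed. The medians of the overexpression comparisons without library 2 of SMYD3 CL5 at 0 h were chosen after seeing the data. Genes of few counts, such as Cox8b, limit what these depths can show.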

Other observations

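Transfer and ribosomal RNA of the mitochondrial genome also varied among the knockdown libraries. The mitochondrial transfer RNA genes together held 36.6 to 103 CPM of the unscaled library total in NucleoSpin libraries at 0 h and 20.4 to 36.7 at 24 h, and the 12S ribosomal RNA mt-Rnr1 held 99.4 to 270 and 92.8 to 130. The nuclear-retained RNA Malat1 held 93.2 to 296 CPM in NucleoSpin libraries at 0 h and 289 to 478 at 24 h, and 356 to 599 and 444 to 908 in TRIzol libraries.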
